A study of Homo sapiens with 2 samples.

Results

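Major histocompatibility complex (MHC) class I molecules show fragments of a cell's own proteins at its surface. They were followed through 9 genes in TCam-2 cells carrying a DDX53 construct: the light chain B2M, the heavy chains HLA-B and HLA-C, the peptide transporter subunits TAP1 and TAP2, the loading factor TAPBP, the transactivator NLRC5 and the immunoproteasome subunits PSMB8 and PSMB9. The 9 genes were listed by symbol, out of 62700 genes in the gene table, because B2M was low beside common reference genes in these same libraries. Levels therefore chose the members, and they are given as a description with no test. TCam-2 is an established human testicular cancer cell line, and its cells had been transduced to overexpress DDX53, an RNA helicase gene. Polyadenylated RNA was sequenced in 2 replicate libraries of 1 group, and nothing in the labels says whether these were separate cultures. Control libraries with a GFP construct or without transduction were not analysed here, so no value below is an effect of DDX53. TCam-2 cells were grown in serum-containing medium, and the labels name no cytokine treatment.

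In the class I pathway the proteasome cuts proteins into peptides, and the TAP1 and TAP2 subunits pump them into the endoplasmic reticulum. Tapasin, the product of TAPBP, holds empty heavy chains next to this pump, and a heavy chain reaches the surface in stable form only when bound to B2M and a peptide. Interferon gamma raises the whole set, in part through NLRC5, and exchanges proteasome subunits for PSMB8 and PSMB9. Spermatogenic cells are known for showing little class I at their surface.

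The short promoter stretches below are shown because they carry elements through which NLRC5 or interferon-induced factors are known to act. They also come from members at very different levels. They are taken from RefSeq on GRCh38.p14, upstream of the annotated start and outside exons of the gene, and read 5′ to 3′ along the gene. Capitals mark AANNGAAA (a relaxed core of the interferon-stimulated response element), TGACG (the core of the X2 box) and ATTGG (the Y box), each on either strand, so that CGTCA and CCAAT are matches on the other strand. Matches may overlap.
HLA-C, chr6:31272131-31272292, minus strand: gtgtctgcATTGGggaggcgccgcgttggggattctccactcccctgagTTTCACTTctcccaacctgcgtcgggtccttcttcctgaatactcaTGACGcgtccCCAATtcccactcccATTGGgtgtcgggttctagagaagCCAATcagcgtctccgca
HLA-B, chr6:31357189-31357379, minus strand: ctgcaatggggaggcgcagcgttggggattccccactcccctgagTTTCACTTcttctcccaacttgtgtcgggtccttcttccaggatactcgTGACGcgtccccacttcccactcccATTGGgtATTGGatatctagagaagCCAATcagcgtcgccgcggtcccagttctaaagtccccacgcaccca
B2M, chr15:44711317-44711486, plus strand: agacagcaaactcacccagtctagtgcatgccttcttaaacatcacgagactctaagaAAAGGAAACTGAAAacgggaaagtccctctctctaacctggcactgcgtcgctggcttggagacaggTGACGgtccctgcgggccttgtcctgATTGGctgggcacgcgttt
TAP2, chr6:32838781-32838939, minus strand: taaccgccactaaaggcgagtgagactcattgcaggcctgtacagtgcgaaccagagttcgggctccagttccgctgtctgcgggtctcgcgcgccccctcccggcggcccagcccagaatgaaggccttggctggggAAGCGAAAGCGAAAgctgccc
In HLA-B, HLA-C and B2M, TGACG was followed by ATTGG after 20, 20 and 21 bases. Of 35116 RefSeq promoters, 0.692% held TGACG followed by ATTGG after 10 to 30 bases within 250 bases upstream of the start, on either strand. TGACG alone was in 21.2% of all promoters and in 6 of the 8 members with an entry, TAP2 among them. The TAP2 stretch above holds relaxed cores only, and its TGACG lay in a part of the window not shown. A relaxed core lay in the same window of all of HLA-B, HLA-C and B2M, and 0.128% of all promoters held both. The strict core, 2 copies of GAAA with 2 bases between them, was found in 3.02% of all promoters. It was present in B2M, TAP1, TAP2 and TAPBP, 4 of the 8 members with an entry. A member was counted if any of its promoters matched, with 10 promoters for the 8 members, while the share over all promoters counts each promoter. In TAP1 and TAPBP the matching window lay wholly inside annotated exons of the gene. The motifs and the spacing were chosen with these promoter sequences in view, and a match is a description of letters only. HLA-B, HLA-C and B2M shared this arrangement, and the values below show how far apart their levels were.

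Sequencing depth was 24137664 reads for replicate 1 and 22198929 for replicate 2. Levels in CPM (counts scaled to these totals) do not account for gene length. A count of 0 allows up to 3 reads, or 0.124 CPM at the depth of replicate 1 and 0.135 CPM at that of replicate 2. Such limits and all intervals cover counting error only. DDX53 had 146 and 147 reads, 6.34 ± 0.405 CPM (SD, n = 2), and without control libraries this level checks no label. All 8 markers of seminoma and germ cells were detected. Of 11 leukocyte markers 7 had no read in either library, among them PTPRC, CD3D, CD3E and MS4A1, and their summed level was 2.82 CPM in replicate 1 and 2.66 CPM in replicate 2. Of 4 fibroblast markers DCN was not detected, and their summed level of 474 and 448 CPM was mostly COL1A2. The part of such cells in the member levels was not tested, and in bulk RNA fewer cells with a message and less of it per cell cannot be told apart.

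Of the 9 members, 4 reached 1 CPM in both libraries, the level called detected here. The share of all genes detected by this rule was 21.7%, and of protein-coding genes 61.7%. HLA-B, HLA-C, B2M and TAPBP passed, and TAP1, TAP2, NLRC5, PSMB8 and PSMB9 did not. The median of the members was 0.410 TPM (a level per transcript length that adds up to the same total in each library, summed here over the transcripts of a gene), against 3.76 TPM over protein-coding genes.

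**Figure D1:**
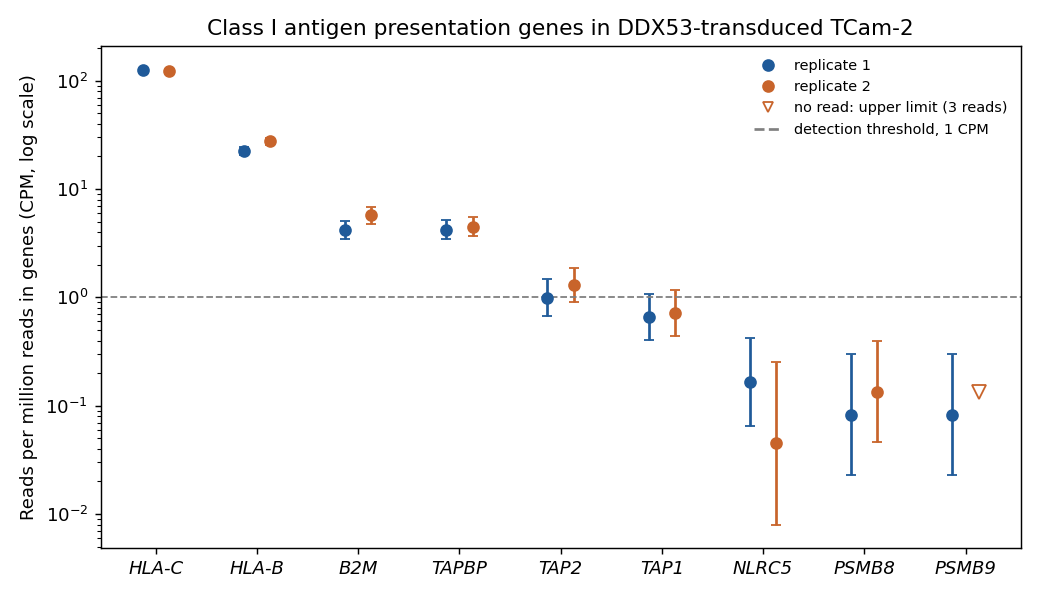
Level of each class I presentation gene in each library, in CPM on a log axis; bars are 95% Wilson intervals of counting error, the open triangle is the limit set by 3 reads where no read was counted, and the dashed line is 1 CPM. HLA-C and HLA-B stand highest in both libraries, and NLRC5, PSMB8 and PSMB9 lie below 0.2 CPM in both.

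Heavy chains were the highest members. HLA-C (ENSG00000204525.18), which binds peptides for T cells and is a ligand of natural killer cell receptors, lies on chromosome 6 from 31268749 to 31272092 on the minus strand. Its 3005 reads in replicate 1 made 124 CPM (95% Wilson interval, 120 to 129), and its 2712 reads in replicate 2 made 122 CPM (118 to 127). The intervals overlapped. Its level of 141 ± 0.0520 TPM (SD, n = 2) was above 94.8% of protein-coding genes. Nearly all of it was the protein-coding transcript HLA-C-201, which held 95.6% (replicate 1) and 92.7% (replicate 2) of the summed TPM.

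HLA-B (ENSG00000234745.14), the most variable of the classical heavy chain genes between people, is the next gene, from 31353875 to 31357179. Its 545 reads in replicate 1 made 22.6 CPM (95% Wilson interval, 20.8 to 24.6), and its 612 reads in replicate 2 made 27.6 CPM (25.5 to 29.8). Replicate 2 was higher, and the intervals did not overlap. Its level was 37.9 ± 1.78 TPM (SD, n = 2), above 83.0% of protein-coding genes. HLA-C was 3.72 ± 0.177 times as high as HLA-B per length in TPM (SD, n = 2), and 6.05 ± 0.931 times with reads per kilobase of merged exons. Heavy chain genes resemble each other, and their reads are uncertain to that extent. Of the stretches of 31 bases in the main HLA-B transcript 15.6% also occur in transcripts of other genes, most often HLA-C, and in the main HLA-C transcript 20.2%, most often HLA-B.

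The light chain gene stood far below its partners. B2M (ENSG00000166710.23), on chromosome 15 from 44711517 to 44718145 on the plus strand, had 101 reads in replicate 1, at 4.18 CPM (95% Wilson interval, 3.44 to 5.08), and 127 in replicate 2, at 5.72 CPM (4.81 to 6.81). Replicate 2 was higher, with overlapping intervals. Per length it was at 7.42 TPM in replicate 1 and 9.98 TPM in replicate 2, above 60.4% of protein-coding genes. Of this, 100% in replicate 1 and 99.2% in replicate 2 belonged to B2M-215, a protein-coding transcript of 943 bases that shares 0 of its 913 stretches of 31 bases with other genes. B2M had no exonic overlap with another gene.

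Each surface molecule holds 1 heavy and 1 light chain, so the messages were set side by side per length. HLA-B and HLA-C together had 178 TPM in replicate 1 and 180 TPM in replicate 2, or 23.9 and 18.0 times B2M. With reads per kilobase of merged exons the mean ratio was 72.1 instead of 21.0, since the merged exons of B2M span 6079 bases and its main transcript 943. From reads of both libraries per length of the expressed transcripts, HLA-C alone was 15.4 times as high as B2M (95% exact interval, 13.5 to 17.7) and HLA-B 3.40 times (2.95 to 3.94). B2M was below HLA-B and HLA-C in both libraries on each of these scales. It was also below HLA-E, a heavy chain outside the list and the ligand of an inhibitory natural killer cell receptor, which had 66.6 ± 4.28 TPM (SD, n = 2). HLA-F and HLA-G reached 1 CPM in replicate 1 only and so did not count as detected. HLA-F had 25 and 8 reads, or 1.04 and 0.360 CPM, and HLA-G had 33 and 13 reads, or 1.37 and 0.586 CPM. Other proteins that pair with B2M were mostly low too. FCGRT, the Fc receptor that rescues antibodies from degradation, was detected at 11.8 ± 1.40 CPM (SD, n = 2), while HFE, MR1 and CD1D had from 1 to 16 reads in either library.

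The peptide transporter was close to the limit of detection. TAP1 (ENSG00000168394.13), on chromosome 6 from 32845209 to 32853704 on the minus strand, received 16 reads in each library. These made 0.663 CPM in replicate 1 (95% Wilson interval, 0.408 to 1.08) and 0.721 CPM in replicate 2 (0.444 to 1.17). TAP2 (ENSG00000204267.19), from 32821831 to 32838739 on the same strand, had 24 reads in replicate 1, at 0.994 CPM (95% Wilson interval, 0.668 to 1.48), and 29 in replicate 2, at 1.31 CPM (0.910 to 1.88). TAP2 thus fell on either side of the threshold, and the intervals of both TAP1 and TAP2 included 1 CPM in both libraries. Per length the subunits did not differ beyond their spread: TAP1 was at 0.410 ± 0.0722 TPM and TAP2 at 0.374 ± 0.0808 TPM (SD, n = 2 each), and their ranges overlapped. The ratio of TAP1 to TAP2 was 1.13 and 1.07 in TPM, and a mean of 0.810 with reads per kilobase of merged exons, so the order turned with the scale. TAP2 is the less certain of the pair, since 36.0% of the stretches of 31 bases in its main transcript are also in another annotated gene, and a same-strand neighbour covers 32.3% of its exonic length. For TAP1, a transcript annotated as processed, without a coding frame, held 52.9% and 86.0% of the TPM, against 47.1% and 14.0% for the protein-coding one, at a depth of 16 reads in each library.

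TAPBP (ENSG00000231925.14), from 33299694 to 33314078 on the minus strand of chromosome 6, had 102 reads in replicate 1, at 4.23 CPM (95% Wilson interval, 3.48 to 5.13), and 100 in replicate 2, at 4.50 CPM (3.70 to 5.48). The intervals overlapped. Its transcripts are long, and per length it was at 1.45 ± 0.153 TPM (SD, n = 2), and HLA-B was on average 26.3 times as high in TPM and 9.50 times with reads per kilobase of merged exons. General chaperones of the endoplasmic reticulum were far higher. CALR, which holds glycosylated heavy chains, had 1191 ± 25.2 TPM, CANX, which folds them, had 381 ± 1.82 TPM, and HSPA5, another chaperone of the endoplasmic reticulum, had 223 ± 10.7 TPM (SD, n = 2 each). PDIA3, their partner, is uncertain, with 21257 and 20152 reads but a summed 12.8 ± 1.30 TPM (SD, n = 2). TAPBPL, another peptide editor, had 4 and 7 reads. Of the enzymes that trim peptides, ERAP1 had 4.21 ± 0.393 TPM (SD, n = 2), and ERAP2 had 1 and 3 reads. In all, 5 of these 7 loading and trimming genes were detected.

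Immunoproteasome subunits were nearly without reads. PSMB8 (ENSG00000204264.12), on chromosome 6 from 32840717 to 32844679 on the minus strand, encodes the subunit that replaces PSMB5, and received 2 reads in replicate 1 and 3 reads in replicate 2. PSMB9 (ENSG00000240065.8), from 32854192 to 32859851 on the plus strand, replaces PSMB6, and received 2 reads in replicate 1 and 0 reads in replicate 2, which allows up to 0.135 CPM there. The constitutive subunits were high: PSMB5 had 2773 and 2537 reads and PSMB6 had 2719 and 2556 reads. Per length, over both libraries together, PSMB5 was 944 times as high as PSMB8 (95% exact interval, 404 to 2909) and PSMB6 was 2454 times as high as PSMB9 (679 to 20272). The remaining interferon-inducible subunit, PSMB10, is uncertain, since it had 33 and 26 reads but 33.2 ± 0.488 TPM (SD, n = 2), and a same-strand neighbour covers 34.8% of its exonic length. PSME1 and PSME2, which form the interferon-inducible activator of the proteasome, had 15.1 ± 2.11 and 33.0 ± 2.57 CPM (SD, n = 2 each). All 6 of these other proteasome genes were detected, and the highest was PSMB7 with 234 ± 3.71 TPM (SD, n = 2).

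NLRC5 (ENSG00000140853.17), on chromosome 16 from 56989557 to 57083520 on the plus strand, had 4 reads in replicate 1, at 0.166 CPM (95% Wilson interval, 0.0644 to 0.426), and 1 read in replicate 2, at 0.0450 CPM (0.00795 to 0.255). It is the factor that binds class I promoters through partners already on the X and Y boxes, and those partners were present. Of 12 regulators 11 were detected, including RFX5, RFXAP and RFXANK of the X box complex and NFYA, NFYB and NFYC of the Y box complex. Per length RFXANK was highest at 98.0 ± 4.94 TPM (SD, n = 2), and by CPM the highest was NFYC at 78.5 ± 1.52 CPM and the lowest detected was RFXAP at 5.07 ± 0.727 CPM (SD, n = 2 each). IRF1, an interferon-induced activator of the class I genes, was the one not detected, with 22 reads in replicate 1, or 0.911 CPM, and 32 reads in replicate 2, or 1.44 CPM.

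Receptors and kinases of interferon signalling were present, 9 of 10 genes detected. By CPM, STAT2, which carries the type I interferon signal, stood highest at 149 ± 19.5 CPM (SD, n = 2). The lowest detected by CPM was IFNAR2, a subunit of the type I receptor, at 4.26 ± 0.297 CPM (SD, n = 2). JAK2 was within that spread at 4.34 ± 0.227 CPM (SD, n = 2). Per length JAK2 was lower, at 0.996 ± 0.0695 TPM against 8.94 ± 1.16 TPM for IFNAR2 (SD, n = 2 each). The reads of IFNAR2 are uncertain, since genes on the same strand cover 44.2% of its exonic length. JAK1, the kinase shared by both receptors, is uncertain, with 67.5 ± 0.0929 CPM and 9.94 ± 2.87 TPM (SD, n = 2 each). IFNAR1, the other type I receptor subunit, is uncertain too, with 1044 and 1064 reads. Summed over the transcripts matched to it, IFNAR1 had 1.22 TPM in replicate 1 and 0 TPM in replicate 2. IRF9, the DNA-binding partner of STAT2, had 8 and 9 reads and was not detected. Its level is uncertain as well, since genes on the same strand cover 48.4% of its exonic length. The transcripts matched to IRF9 summed to 0.0528 TPM in replicate 1 and 0 TPM in replicate 2. NLRC5, TAP1, PSMB8 and PSMB9 were low in these same libraries, in which IRF1 and IRF9 were not detected either. Any link between these levels was not tested.

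**Figure D2:**
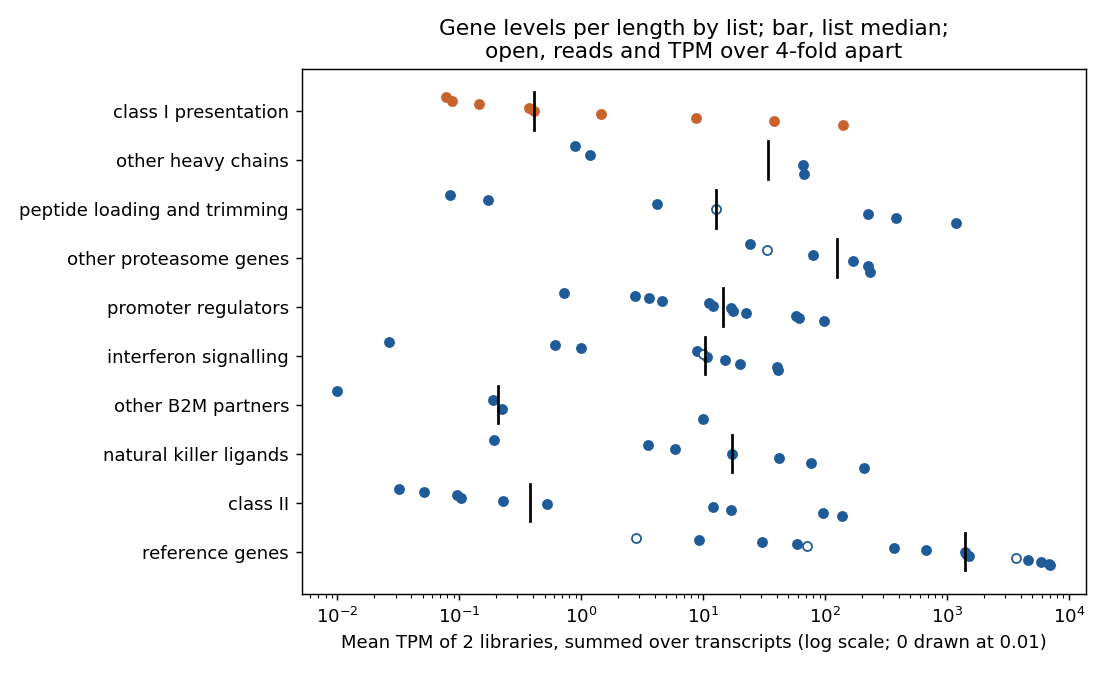
Mean summed TPM of the 2 libraries on a log axis for the class I presentation genes (orange) and 9 comparison lists (blue); each point is a gene, the black bar is the list's median, open points are genes whose reads and TPM prediction were over 4-fold apart where both libraries gave a ratio, and 0 is drawn at 0.01. The class I presentation genes have a median of 0.410 TPM, and only HLA-C and HLA-B exceed 10 TPM.

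Ordered by TPM the members ran HLA-C, HLA-B, B2M, TAPBP, TAP1, TAP2, PSMB8, PSMB9 and NLRC5. Neighbours in this order had separate ranges over the libraries from HLA-C down to TAP1 and between TAP2 and PSMB8. TAP1 and TAP2 overlapped, and so did PSMB8, PSMB9 and NLRC5, whose order is not resolved at 0 to 4 reads. Of the common reference genes, TBP lay closest to B2M and had 9.18 ± 0.303 TPM (SD, n = 2), so B2M and TBP differed by less than the spread of B2M. SDHA and EEF1A1 are uncertain, since their reads and the number their TPM predicts were over 4-fold apart. The highest reference gene by TPM was PPIA with 6961 ± 95.6 TPM (SD, n = 2).

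Positions were compared next, since 7 members lie in the MHC on chromosome 6. HLA-C and HLA-B sit together, next to POU5F1, a germ cell factor with 2130 ± 40.1 TPM (SD, n = 2). TAP2, PSMB8, TAP1 and PSMB9 are consecutive protein-coding genes. They fell within a run of 9 genes without detection, from HLA-DQA2 to HLA-DMA. On either side of the run stood HLA-DQB1 with 138 ± 14.6 TPM and BRD2, a chromatin reader gene, with 93.8 TPM as a mean of the libraries. Of 142 protein-coding genes from HLA-F to TAPBP 73 were detected, and 3 of the 22 runs without detection were at least this long. The other long runs held some genes that were low in reads but not in the transcript table, such as CSNK2B with a mean of 188 TPM and GTF2H4 with 23.6 TPM. They also held stretches under 1 TPM, from MUCL3 to CDSN and from LY6G6F-LY6G6D to MPIG6B. The shorter run from LTA to AIF1 was under 1 TPM throughout. In the run around TAP1, the 7 genes from HLA-DOB to HLA-DMA were under 1 TPM and HLA-DQB2 was at 1.06 TPM. TAPBP lay between detected neighbours. RGL2 had a mean of 18.4 TPM and ZBTB22 of 13.4 TPM, against 1.45 TPM for TAPBP. B2M, for its part, lies between PATL2, with 2 reads in each library, and TRIM69, with a mean of 2.12 TPM. These neighbours were chosen by position after the values were seen.

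**Figure D3:**
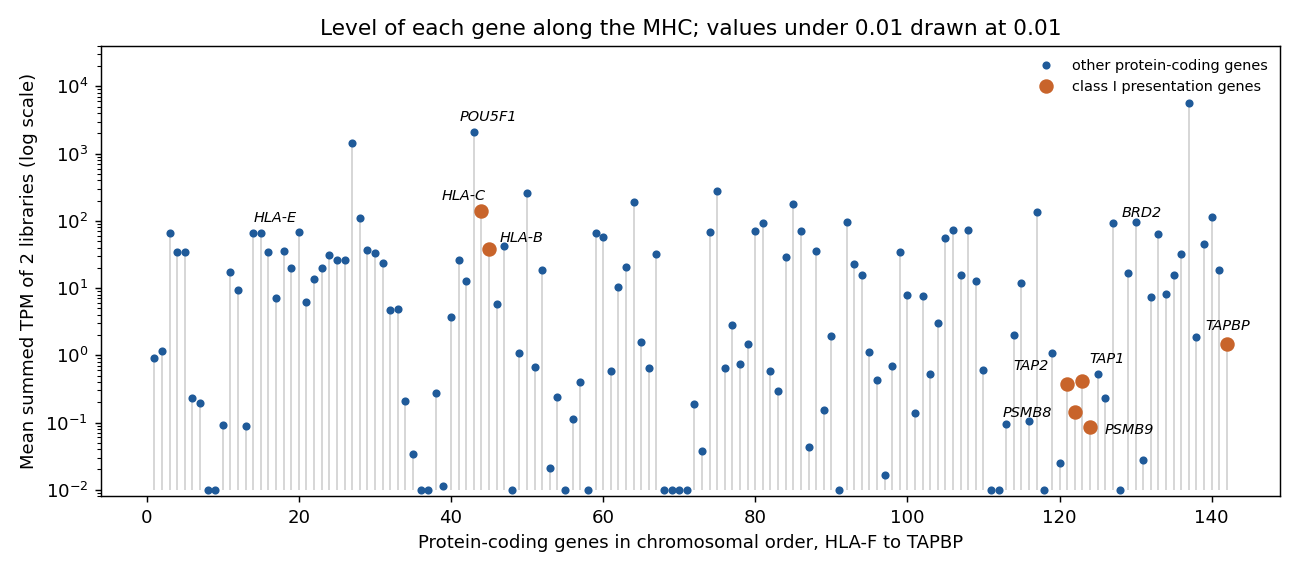
Mean summed TPM of the 2 libraries, on a log axis, of 142 protein-coding genes in chromosomal order from HLA-F to TAPBP, equally spaced; class I presentation genes are orange, and values under 0.01 are drawn at 0.01. HLA-C and HLA-B stand among high genes, while TAP2, PSMB8, TAP1 and PSMB9 sit in a low stretch between HLA-DQB1 and BRD2.

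Because the gene table and the transcript table were made in different ways, each member's reads were set against the number its TPM predicts. The log2 ratio of reads to prediction lay between -0.58 for HLA-B and 0.40 for TAPBP in the single libraries. Over 14083 genes with a ratio in both libraries the median was 0.13 for replicate 1 and 0.14 for the other library. By this measure 5.89% of the genes were over 4-fold apart in both libraries. Of the 8 members with reads in both libraries, 0 were that far apart, and PSMB9 had a ratio of -0.15 in replicate 1. For B2M the ratio was -0.16 in replicate 1 and -0.15 in replicate 2, so its low level stood in both tables. Among the 60 other pathway genes, PDIA3, PSMB10 and JAK1 were over 4-fold apart in both libraries. IFNAR1 and IRF9 had a log2 ratio of 3.10 and 3.91 in replicate 1 and none in replicate 2. There they had reads, but the transcripts matched to them summed to 0 TPM. Transcripts that matched no gene are left out of these sums, and their part in such differences was not tested.

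**Figure D4:**
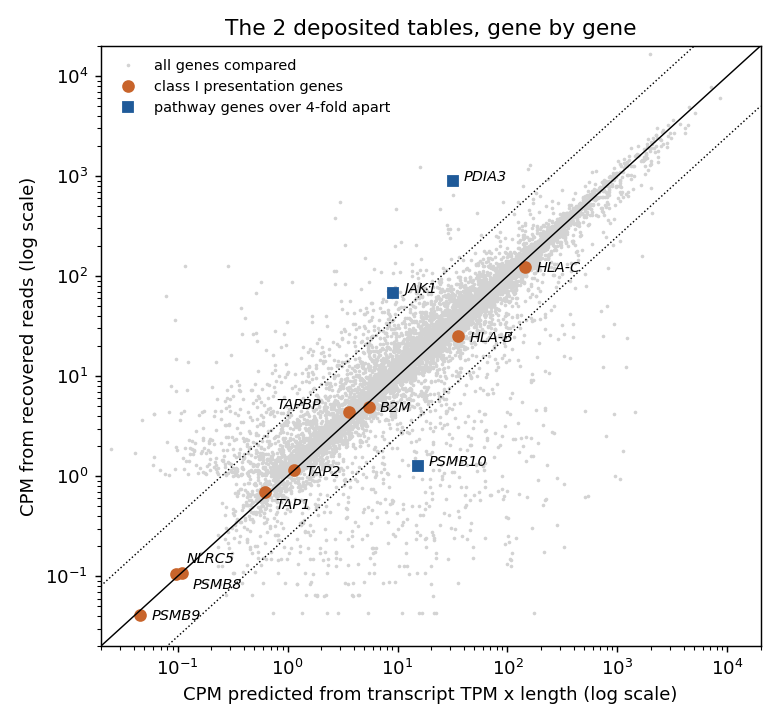
CPM from the gene table against the value predicted from the transcript table (TPM times length, scaled to the same total), both on log axes as means of the libraries; grey points are 14083 genes, orange points the class I presentation genes, blue squares the pathway genes over 4-fold apart among those with a ratio in both libraries, the solid line equality and the dotted lines 4-fold. The class I presentation genes lie along the line, and PDIA3, JAK1 and PSMB10 lie outside the dotted lines.

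Between the replicates, 6 of the 9 members had enough reads to be tested against counting noise, and 1 passed (two-sided exact binomial test in edgeR, Benjamini-Hochberg adjustment over 15299 genes). The test called 13.1% of all genes, and it compares these libraries, not conditions. HLA-B was higher in replicate 2 by a log2 difference of 0.28 (exact binomial test, adjusted p = 0.0069), the direction of 6.78% of all genes. On the TPM scale the log2 difference was 0.09. B2M was higher by 0.37 and did not pass (exact binomial test, adjusted p = 0.101), at 101 and 127 reads. For HLA-C the log2 difference was -0.03, with an adjusted p of 0.829 in the same exact binomial test. TAP1, TAP2 and TAPBP had log2 differences of 0.05, 0.21 and 0.08 and did not pass. NLRC5, PSMB8 and PSMB9 had too few reads for the filter. Without the filter all 9 members were tested, 6.47% of 26504 genes were called, and of the members again 1. For NLRC5, PSMB8 and PSMB9 a difference between the libraries was not detectable at this depth.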

How the data were processed

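RNA from 2 replicates of DDX53-transduced TCam-2 cells was analysed. The deposited transcript table holds TPM made by the authors; Salmon 1.10.2, STAR 2.7.11a, Trim Galore 0.6.10 and GRCh38 are named in the submitters' processing notes, and the annotation and counting tool are not given in the sources used here. The deposited gene table is named CPM, but its signal values are reads over a single scaling factor for each library: 100% of values above 0 were whole multiples (within 1e-06) of the lowest one. Those reads were recovered and scaled to CPM. All 62700 genes had an entry in the gene name table.

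Transcripts were matched by identifier to GENCODE 29 (201667 of 251955, with 94.8% of TPM) and summed per gene; the others carry no gene here. Predicted reads were TPM times transcript length. Gene coordinates are RefSeq's on GRCh38.p14, and exonic overlap and merged exons are from GENCODE 29. Promoters came from RefSeq, where 8 of 9 members had an entry. Wilson intervals (95%) describe single libraries, and pooled ratios of genes have exact Clopper-Pearson intervals.

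Replicates were compared with the two-sided exact binomial test of edgeR 4.0.16 on recovered reads (TMM, filterByExpr, Benjamini-Hochberg, threshold 0.05), tested on simulated data. Log2 differences used CPM + 1, which understates the change of low genes. Alternatives covered units, scaling with DESeq2 1.42.0, thresholds, filters, transcript lengths and each library alone.

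The members and lists were chosen with earlier results of these data known. Named genes were the members, DDX53, the highest and lowest detected and all undetected genes of each list, and genes over 4-fold apart between the tables. Others, such as the chaperones, the trimming enzymes, the X and Y box factors, the proteasome activator genes and chromosomal neighbours, were named after their values were seen. A few genes that the rule names are not reported here.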

Additional observations from a re-analysis of the deposited data

How the results depend on the processing

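No paired analysis was possible because only 1 group was analysed here. At a threshold of 5 CPM 2 members were detected instead of 4, at 0.1 CPM 6, by TPM 4, and with 1 library left out in turn there were 4 to 5. Of 60 pathway genes 44 were detected, against 40 at 5 CPM, 53 at 0.1 CPM, 42 by TPM and 45 to 46 with 1 library left out. With reads per kilobase of merged exons, which counts exons that are not in the expressed transcripts, the mean ratio of HLA-C to HLA-B was 6.05 against 3.72, of TAP1 to TAP2 0.810, of PSMB8 to PSMB5 0.000561 against 0.000856, of HLA-B and HLA-C to B2M 72.1 against 21.0, and of HLA-B to TAPBP 9.50 against 26.3. Leaving out a library gave ranges of 3.60 to 3.85, 1.07 to 1.13, 0.000655 to 0.00106 and 18.0 to 23.9 for the first 4 of these ratios in TPM. The ratio of PSMB9 to PSMB6, 0.000388, ranged from 0 to 0.000775. The member passing the replicate test numbered 1 under each normalization and filter tried. Depth limits NLRC5, PSMB8 and PSMB9, which had at most 4 reads in a library, and the depth behind single transcripts is unknown.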

Other observations

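Class II genes, which present peptides from outside the cell, showed an uneven pattern between chains of the same molecule. HLA-DQB1, a beta chain, had 2238 reads in replicate 1 and 2382 reads in replicate 2, or 138 ± 14.6 TPM (SD, n = 2), while its alpha chain HLA-DQA1 had 2 reads and 0 reads. HLA-DRB1 had 130 and 173 reads, and its alpha chain HLA-DRA had 4 reads and 0 reads. Both HLA-DPA1 and HLA-DPB1 were detected, at 16.9 ± 3.79 and 96.1 ± 12.9 TPM (SD, n = 2 each). CIITA, the master regulator of class II genes, had 2 reads and 1 read, and CD74, the invariant chain, had 1 read and 0 reads. The peptide exchange genes HLA-DMA and HLA-DMB had 9 reads or fewer in each library. HLA-DQB1 and HLA-DRB1 were higher in replicate 2 beyond counting noise (exact binomial test in edgeR, adjusted p = 1.0e-05 and 0.0141).

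Ligands of natural killer cell receptors were mostly present. Of 7 genes 6 were detected, from MICA with 5.99 ± 1.15 CPM to NECTIN2 with 296 ± 1.80 CPM (SD, n = 2 each). ULBP2 had 4 reads in each library. MICA and MICB lie beside HLA-B, and MICB was at 42.1 ± 0.680 TPM against 5.83 ± 1.12 TPM for MICA (SD, n = 2 each).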
